A study of Mus musculus with 6 samples.

Results

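The 78 genes for mitochondrial ribosomal proteins were followed in bone marrow-derived macrophages (BMMs) that were cultured without RANKL, with RANKL, or with RANKL and a leaf extract (LE) of *Abeliophyllum distichum*. Members were the genes whose symbol is Mrpl or Mrps and a digit, with no pseudogene mark in the symbol and a mean of at least 0.5 RPKM (reads for each kilobase of the transcript, scaled to 1000000 mapped reads) over the 6 libraries. All 78 symbols of that form passed the minimum, out of 24940 genes in the deposited table and 11595 genes that passed it. They comprised 49 Mrpl and 29 Mrps genes, spread over 17 chromosomes.

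Mitochondria carry their own ribosome, which translates the few messages of the mitochondrial genome, and all of those proteins are subunits of the respiratory chain or of ATP synthase. The RNA of the mitochondrial ribosome is encoded in the mitochondrion, whereas every one of its proteins is encoded in the nucleus, made in the cytosol and imported. Many of the proteins descend from those of bacterial ribosomes, and others are found in mitochondria only. Osteoclasts, the bone-resorbing cells that BMMs become under RANKL, are known as cells rich in mitochondria.

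Every culture was kept for 3 days in M-CSF, a macrophage growth factor, at 30 ng/mL. The -R cultures received nothing else, the +R cultures also received RANKL, the cytokine that drives osteoclast formation, at 100 ng/mL, and the R+LE cultures received the same RANKL and LE at 10 μg/mL. Each condition had 2 libraries, and nothing in the labels says whether these came from separate mice or cultures. The labels give C57BL/6 mice of 6 to 8 weeks and plates with 48 wells, whereas the methods of the study name ICR mice and another plate format for sequencing.

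Depth was alike, with 29390110 to 34846374 mapped reads per library, of which 74.2 to 80.7% lay on genes, and every member held at least 213 reads in each library. The Rn45s entry, which covers the ribosomal RNA precursor, took 4.97 and 6.83% of the gene reads of the -R libraries, 10.9 and 11.1% of those of +R, and 11.2 and 13.5% of those of R+LE. The 5 macrophage markers were all detected, with summed levels of 6374 to 6986 RPKM in -R, 2603 to 3347 in +R and 3627 to 4041 in R+LE. Summed levels of the 6 osteoclast markers, all detected, were 40.2 to 41.2, 1706 to 1931 and 298 to 340 RPKM in the same order. Lyz2 made up most of each macrophage sum, and the 5 markers did not move as one. RANKL alone lowered 4 of them (limma, adjusted p below 0.05), all but Itgam. Itgam was higher in R+LE than in -R (log2 fold change 0.56, adjusted p = 0.0114), whereas 3 others were lower. Adding LE to RANKL gave log2 fold changes above 0 for 3 markers, Lyz2 among them. The changes of the 2 others, one being Cd68, were below 0, and none of the 5 passed. T cell, B cell and erythroid markers summed to less than 1 RPKM in every library, and neutrophil markers, nearly all from S100a8, to 10.7 and 10.9 RPKM in -R and at most 2.53 elsewhere. Stromal markers summed to 12.8 to 14.8 RPKM in -R, 9.03 to 12.9 in +R and 6.86 to 7.83 in R+LE. The 3 endothelial markers summed to 2.29 to 2.38 RPKM in -R, 1.99 to 2.09 in +R and 0.65 to 0.717 in R+LE. Kdr made up most of these sums, and the 3 did not move as one. Mean Kdr was 1.28 RPKM in -R and 1.92 in +R, whereas Cdh5 went from 0.643 to 0.098 and Pecam1 from 0.42 to 0.02. Only Kdr was tested, and it was lower in R+LE than in +R (log2 fold change -1.20, limma, adjusted p = 0.000473). The part of these cell types and of Rn45s in the results on the members was not tested.

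One library stood apart on the members. R+LE replicate 2 was lower than R+LE replicate 1 in 75 of 78 members, with a median difference of -0.30 on the scale of log2(RPKM + 0.5), against -0.13 over all genes tested, of which 69.1% were lower. In the other conditions the median difference between replicates (replicate 2 minus replicate 1) over the members was -0.088 in -R and -0.052 in +R. For the comparisons with R+LE, the number of members that passed and the median are therefore also given with each R+LE library left out. Single-gene calls, the other gene lists and the order of the means rest on both R+LE libraries unless stated.

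The members were expressed at middling to high levels for these cells, and their mean over the 6 libraries ran from 5.24 RPKM for Mrpl17 to 84.1 RPKM for Mrpl52, a 16.0-fold span. The median member lay at 23.0 RPKM, against 8.12 RPKM over all genes tested, and 72 of 78 members were above that value. After Mrpl52, the highest means were those of Mrps18c (76.2 RPKM), Mrpl12 (74.3), Mrpl30 (68.7) and Mrpl42 (66.3), and the lowest after Mrpl17 were those of Mrpl41 (6.47) and Mrpl19 (6.92). Levels per length went down with transcript length, with a Spearman rho of -0.71 across the 78 members and -0.093 across all genes tested, genes being no independent replicates. RPKM divides reads by that same length, so the 2 are not independent, and the part of this in the rho was not tested. Mrpl17 (6707 bases) held 902 to 1286 reads per library, whereas Mrps12 (719 bases, mean 10.8 RPKM) held 213 to 285. The order of the members changed little between conditions, with a rho of 0.89 between -R and +R, 0.97 between +R and R+LE and 0.95 between -R and R+LE. Mrps6 moved most in that order, from place 68 of 78 in -R to place 7 in +R and place 18 in R+LE.

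RANKL raised many members and lowered none that passed the test. In +R against -R, 34 of 78 members were higher at an adjusted p below 0.05 (limma, adjusted over 11595 genes), where 23.9% of all genes tested were, and 44 did not pass. Fold changes of the 34 ran from 1.28 to 6.36. Mrps6, Mrps35 and Mrpl52 were also at least 2-fold higher, as were 6.58% of all genes tested, with 8.92% at least 2-fold lower. No member was lower at an adjusted p below 0.05, against 21.5% of all genes, with 1 member lower at an unadjusted p below 0.05 in limma. By voom on recovered reads 1 member was called lower. The same count of 1 came with a minimum of 1 RPKM, the 2 groups alone, median centring, quantile normalization and a replicate block. The members' median log2 fold change was 0.35, against 0.045 for all genes tested, and the interquartile range of the members was 0.21 to 0.56. The log2 fold change was above 0 in 76 members (53.3% of all genes) and below 0 in 2 (46.7%). Both +R libraries were above both -R libraries in 69 members, a pattern that 40.3% of all genes showed, and below both in 1 member, Mrpl27, as were 35% of all genes. Since these are bulk libraries scaled to the mapped reads, a change in the make-up of the cultures and a change in RNA per cell cannot be told apart. The count of 34 fell to 20 without -R replicate 1 and 19 without -R replicate 2, and was 54 under quantile normalization and 57 when scaled to reads on genes other than Rn45s.

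**Figure D1:**
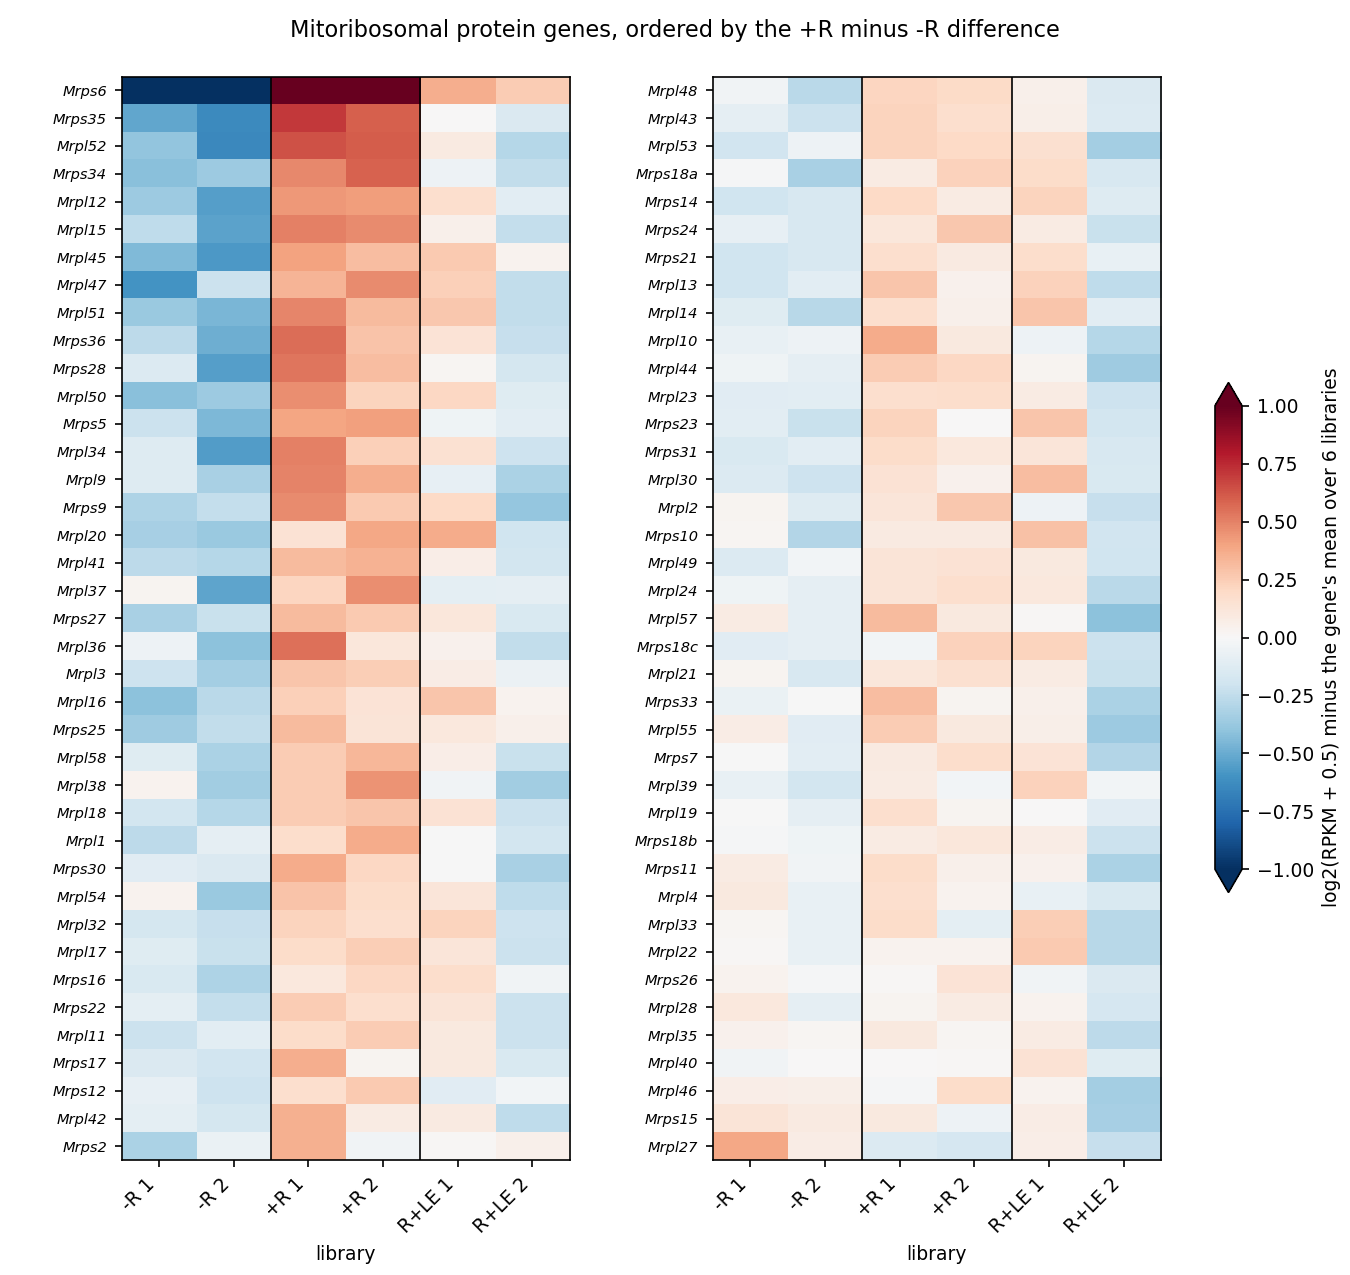
Colour gives log2(RPKM + 0.5) of each of the 78 members in each of the 6 libraries, minus that gene's mean over the 6 libraries, with colours capped at -1 and 1 and genes ordered by the +R minus -R difference. The +R columns are red for most genes and the -R columns blue, and the R+LE replicate 2 column is bluer than that of R+LE replicate 1 in 75 of 78 genes.

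Mrps6, the mitochondrial form of the small subunit protein S6, changed most. It was at 10.4 and 8.63 RPKM in -R, 70.9 and 55.9 RPKM in +R, and 35.4 and 32.8 RPKM in R+LE, so that no 2 conditions overlapped. Its log2 fold change with RANKL was 2.67 (SE 0.16, 95% interval 2.34 to 3.00, adjusted p = 2.2e-09), or 6.36-fold on the log2(RPKM + 0.5) scale. The Mrps6 gene lies at chr16:92058336-92112227 (mm10, plus strand), and 159 bases of its exons are also exon of Slc5a3, a sodium and inositol transporter gene on the same strand. Slc5a3 itself was at 0.621 and 0.684 RPKM in -R, 15.7 and 19.9 RPKM in +R, and 5.65 and 7.68 RPKM in R+LE. At Slc5a3's own level per base, those shared bases would add at most 4.08 RPKM to Mrps6 in any library. With the Slc5a3 share alone taken off, Mrps6 would stand at 10.3 and 8.49, 67.7 and 51.9, and 34.3 and 31.3 RPKM in the same order. A further annotated gene on the same strand, Gm49711, shares 305 exon bases with Mrps6, and these values make no allowance for it, since its level was not analysed here.

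Mrps35, a small subunit protein found only in mitochondria, stood at 12.2 and 11.3 RPKM in -R, 29.4 and 27.2 RPKM in +R, and 17.8 and 16.0 RPKM in R+LE. Again the conditions did not overlap, and the log2 fold change with RANKL was 1.23 (SE 0.14, adjusted p = 2.96e-06). Mrpl52, a large subunit protein found only in mitochondria and the member with the highest mean, was at 60.3 and 50.7 RPKM in -R, 123 and 121 RPKM in +R, and 84.3 and 64.9 RPKM in R+LE. Its log2 fold change with RANKL was 1.14 (SE 0.16, adjusted p = 4.05e-05). Mrps34, another small subunit protein of mitochondria only, was at 23.1 and 24.0 RPKM in -R, 43.5 and 46.9 RPKM in +R, and 29.8 and 26.1 RPKM in R+LE. Here the log2 fold change with RANKL was 0.93 (SE 0.14, adjusted p = 6.49e-05), and both +R libraries were above the 4 others.

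The stalk of the large subunit, the arm that recruits translation factors, is built from Mrpl12 on a base to which Mrpl10 and Mrpl11 belong. Mrpl12 was at 55.6 and 48.8 RPKM in -R, 97.3 and 96.0 RPKM in +R, and 81.0 and 66.9 RPKM in R+LE, and rose with RANKL by 0.89 on the log2 scale (SE 0.15, adjusted p = 0.000223). Mrpl11 was at 8.12 and 8.80 RPKM in -R and 10.9 and 11.4 RPKM in +R, a log2 fold change of 0.38 (SE 0.14) that passed by little (adjusted p = 0.0451). That call was lost with any one of the -R or +R libraries left out, without the filter and without a variance trend. Mrpl10 was at 19.2 and 19.5 RPKM in -R and 26.4 and 21.7 RPKM in +R, and its log2 fold change of 0.30 (SE 0.15) did not pass (adjusted p = 0.114). The 3 stalk genes thus all had both +R libraries above both -R libraries, as did 69 of 78 members and 40.3% of all genes tested. Of the 3, 2 passed the threshold, as did 34 of 78 members and 23.9% of all genes tested.

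**Figure D2:**
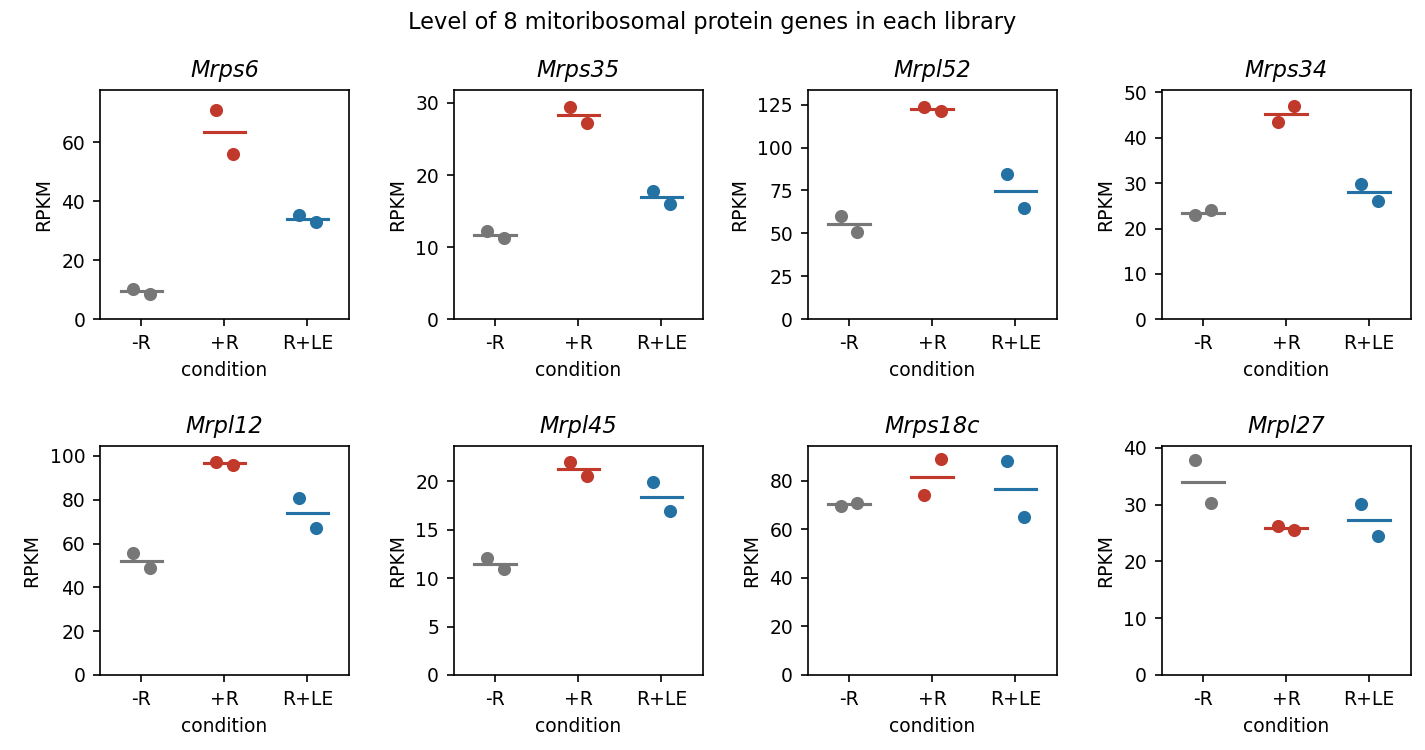
Level in RPKM of 8 members in each library, with a point for each of 2 libraries per condition and a line for their mean, on axes that start at 0. The conditions are apart in Mrps6, Mrps35, Mrpl52, Mrps34, Mrpl12 and Mrpl45, whereas the points of Mrps18c overlap between R+LE and both other conditions and Mrpl27 is highest in -R.

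At the other end, 5 members had the lowest signed log2 fold changes with RANKL, and none of them passed the test. Mrpl27, a large subunit protein of bacterial origin, was at 37.8 and 30.3 RPKM in -R and 26.1 and 25.5 RPKM in +R, with a log2 fold change of -0.39 (SE 0.16, adjusted p = 0.055). Its start lies 37 bases from that of Eme1 on the other strand, and the genes share 75 bases of exon. Mrps15 was at 41.8 and 40.8 RPKM in -R and 40.9 and 36.8 RPKM in +R (log2 fold change -0.088, adjusted p = 0.674). Mrpl46, Mrpl40 and Mrpl35, 2 of them found in mitochondria only, had log2 fold changes of 0.022, 0.027 and 0.029, with adjusted p of 0.919, 0.892 and 0.888. In these 3 genes the sign turned under voom on recovered reads, where the values were -0.029, -0.024 and -0.019.

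Members of each class of protein rose, where 23.9% of all genes tested did. Of the 29 large subunit proteins with a bacterial counterpart, 14 rose with RANKL, and the median of the class was 0.31. Of the 20 large subunit proteins of mitochondria only, 9 rose (median 0.38), among them Mrpl45, which ties the ribosome to the inner membrane, and Mrpl58, a peptidyl-tRNA hydrolase built into the ribosome. In the small subunit, 6 of 16 proteins with a bacterial counterpart rose (median 0.34), including Mrps12, a protein of the decoding centre, and 4 of 9 proteins of mitochondria only did (median 0.38). The last 4 genes, Mrpl55, Mrps18a, Mrps18b and Mrps36, were left out of these classes, and 1 of them (25%) rose, about the share of all genes. Differences between the classes were not tested.

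Some members do not sit where their symbol places them. Mrps30, which lies in the large subunit, was at 16.3 and 15.9 RPKM in -R, 23.0 and 20.4 RPKM in +R and 17.6 and 13.9 RPKM in R+LE, and rose with RANKL by 0.42 on the log2 scale (SE 0.15, adjusted p = 0.0303). Without either -R library, +R replicate 1 or the filter on low genes that call was lost. Mrps36, a subunit of the α-ketoglutarate dehydrogenase complex rather than of the ribosome, was at 22.2 and 18.9 RPKM in -R, 39.7 and 32.7 RPKM in +R and 29.4 and 22.8 RPKM in R+LE, and rose by 0.80 (SE 0.16, adjusted p = 0.000904). The 3 paralogs of bacterial S18 did not pass with RANKL. Mrps18a, which lies in the large subunit, gave a log2 fold change of 0.32 (adjusted p = 0.12), Mrps18b of 0.12 (adjusted p = 0.515) and Mrps18c of 0.20 (adjusted p = 0.343). In each, both +R libraries were above both -R libraries, as in 69 of 78 members and 40.3% of all genes tested.

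**Figure D3:**
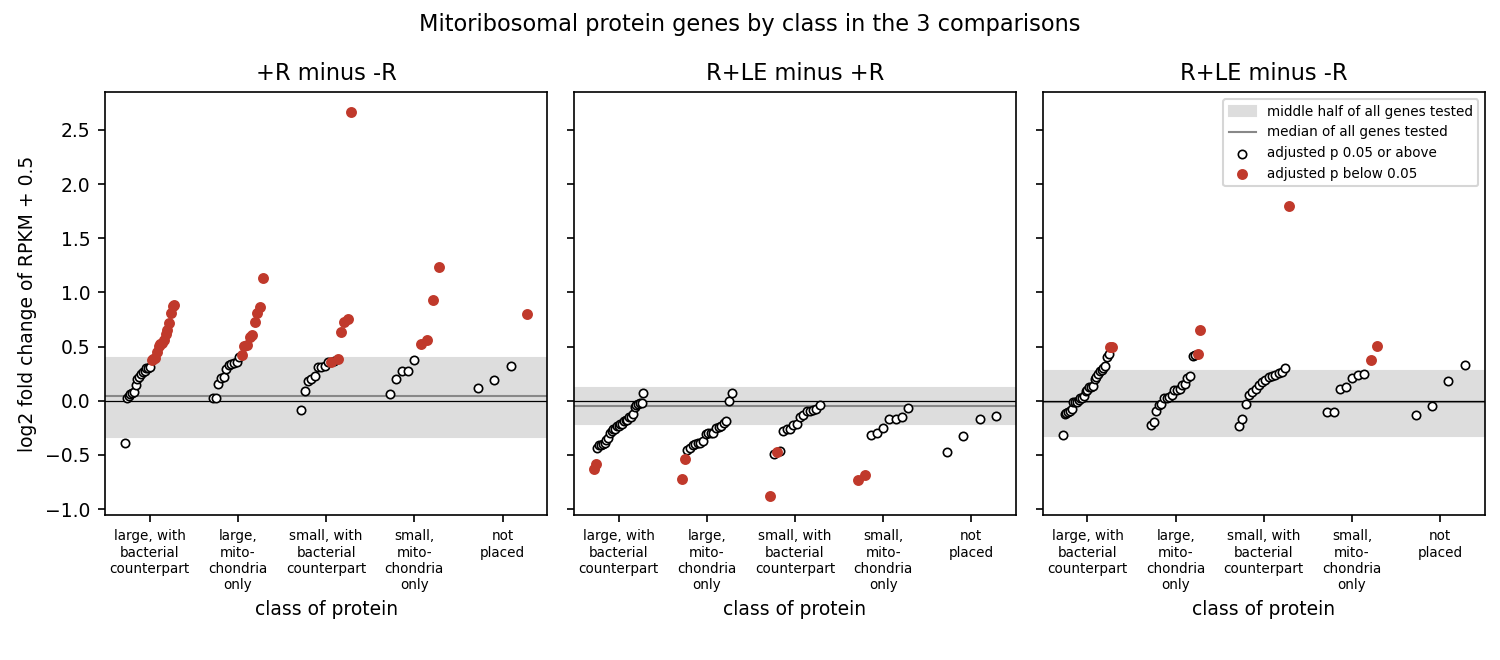
Log2 fold change of RPKM + 0.5 for each of the 78 members in the 3 comparisons, by class of protein, with filled points for an adjusted p below 0.05 and a grey band for the interquartile range of the 11595 genes tested. Filled points are above 0 in +R minus -R (34) and R+LE minus -R (7) and below 0 in R+LE minus +R (8), and occur in each of the 4 main classes in all 3 comparisons.

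The upstream sequence of 5 members is shown, each from RefSeq on GRCm38.p6 and running from 250 bases before to 50 bases after the annotated start, in the direction of the gene. Mrps6, Mrpl52, Mrpl12 and Mrpl9 are shown because RANKL raised them, and Mrps11 because its window also holds the start of Mrpl46 on the other strand and neither gene passed. Capitals mark a match to one of 7 motifs that were searched on both strands.
Mrps6 (chr16:92058086-92058385, plus strand): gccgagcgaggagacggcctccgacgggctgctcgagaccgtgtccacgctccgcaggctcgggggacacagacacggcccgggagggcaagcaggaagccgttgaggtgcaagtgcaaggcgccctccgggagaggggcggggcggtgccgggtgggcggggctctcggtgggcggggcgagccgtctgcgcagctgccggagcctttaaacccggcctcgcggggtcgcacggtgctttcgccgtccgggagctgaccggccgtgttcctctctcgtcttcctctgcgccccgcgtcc
Mrpl52 (chr14:54426659-54426958, plus strand): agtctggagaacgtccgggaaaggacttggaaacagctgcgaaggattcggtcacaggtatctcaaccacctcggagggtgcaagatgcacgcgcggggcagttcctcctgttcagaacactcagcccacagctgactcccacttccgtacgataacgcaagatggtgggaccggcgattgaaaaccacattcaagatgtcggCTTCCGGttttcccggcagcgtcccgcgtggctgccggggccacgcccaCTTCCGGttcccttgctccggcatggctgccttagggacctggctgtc
Mrpl12 (chr11:120484387-120484686, plus strand): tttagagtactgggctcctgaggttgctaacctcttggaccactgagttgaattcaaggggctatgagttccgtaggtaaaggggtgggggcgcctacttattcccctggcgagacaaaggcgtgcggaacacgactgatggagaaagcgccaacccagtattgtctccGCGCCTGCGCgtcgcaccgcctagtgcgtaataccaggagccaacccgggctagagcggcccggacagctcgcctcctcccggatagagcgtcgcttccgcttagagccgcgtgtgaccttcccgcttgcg
Mrpl9 (chr3:94443086-94443385, plus strand): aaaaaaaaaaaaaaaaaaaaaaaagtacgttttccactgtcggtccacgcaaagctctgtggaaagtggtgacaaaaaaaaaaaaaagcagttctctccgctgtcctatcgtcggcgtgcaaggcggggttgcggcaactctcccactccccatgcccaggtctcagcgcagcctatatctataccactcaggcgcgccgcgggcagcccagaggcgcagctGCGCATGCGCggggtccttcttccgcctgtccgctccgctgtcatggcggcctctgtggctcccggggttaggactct
Mrps11 (chr7:78782881-78783180, plus strand): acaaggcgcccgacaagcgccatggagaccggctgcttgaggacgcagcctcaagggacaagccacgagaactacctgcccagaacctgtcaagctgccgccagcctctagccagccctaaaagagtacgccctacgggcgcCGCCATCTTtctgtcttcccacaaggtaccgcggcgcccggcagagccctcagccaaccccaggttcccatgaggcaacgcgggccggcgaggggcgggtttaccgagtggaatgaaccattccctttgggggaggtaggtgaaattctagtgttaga

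The motifs were those of factors that the field links to nuclear genes of mitochondria, with the TATA box beside them. Of the 78 members, 69 had a RefSeq promoter entry, and 8925 of the genes tested did. The strict NRF1 motif, whose letters are the capitals of Mrpl9, was found in 3 members (4.35%) and 2.26% of all promoters, and its looser form, with any base at the fifth letter, a copy in Mrpl12 and the strict form counted too, in 13 members (18.8%) and 11.5%. The ETS motif CCGGAAG, bound by GABP and found on the reverse strand at both capitalised places of Mrpl52, was in 24 members (34.8%) and 20.4% of all promoters. The YY1 motif AAGATGGCG, on the reverse strand in Mrps11, was in 8 members (11.6%) against 3.62%. For the E-box CACGTG the counts were 5 members (7.25%) and 10.5%, and for the TATA box TATAAA 4 members (5.8%) and 6.68%. The ERR motif TCAAGGTCA was found in none of the 69 windows and in 0.258% of all. Mrps6 held none of the 7 motifs in this window. A match of letters is a description of the window and not a binding site.

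Many members start beside another gene. A gene on the other strand started upstream within 1000 bases in 28 of 78 members (35.9%), against 15% of the genes tested, and within 500 bases in 32.1% against 13.2%. Mrpl46 and Mrps11 are such a pair, with starts 42 bases apart. Mrpl46 was at 14.9 and 14.8 RPKM in -R, 14.1 and 16.2 RPKM in +R and 14.6 and 11.1 RPKM in R+LE, and Mrps11, a member picked for description after its values were seen, was at 24.0 and 22.1, 25.7 and 23.4, and 23.3 and 18.02 RPKM. Of the 24 neighbours that are no members and were tested, 6 rose with RANKL (Tcp1, Ndufb5, Fau, Ncapd2, Ska3 and Ptcd2). Another 3 fell (Mitd1, C920021L13Rik and 4930473A02Rik), and 15 did not pass. Over all genes tested, 23.9% rose and 21.5% fell. The median log2 fold change of these neighbours was 0.16, against 0.31 for the members they neighbour. The widest gap was at Mrps26, with a log2 fold change of 0.064, whose antisense neighbour 4930473A02Rik, 8 bases away, fell by 1.90 on the log2 scale (adjusted p = 2.05e-08).

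LE on top of RANKL lowered a smaller number of members. In R+LE against +R, 8 of 78 members were lower (limma, adjusted p below 0.05), against 6.86% of all genes tested, none was higher (5.19% of all genes), and 70 did not pass. Neither limma at an unadjusted p below 0.05 nor voom gave a higher member, whereas 26 of 78 were lower at an unadjusted p below 0.05. Of all genes tested, 23.3% had such a p in either direction. The 8 were Mrps6, Mrps35, Mrpl52, Mrps34 and Mrpl9, together with Mrpl15, Mrpl38 and Mrps5, which were picked for mention after their values were seen. Their log2 fold changes lay between -0.87 and -0.47, so that none reached 2-fold, as 1.46% (higher) and 1.78% (lower) of all genes did. The median over the 78 members was -0.25, against -0.047 over all genes tested, and 75 members were below 0, as were 58% of all genes. Both R+LE libraries were below both +R libraries in 50 members, a pattern that 29.5% of all genes showed. In no member were both above, against 19.5% of all genes. The count of 8 was 5 without +R replicate 1 and 2 without the filter on low genes.

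Mrps6, at 35.4 and 32.8 RPKM in R+LE against 70.9 and 55.9 RPKM in +R, had a log2 fold change of -0.87 (SE 0.16, adjusted p = 0.00144). Mrps35 had one of -0.73 (SE 0.14, adjusted p = 0.0023), Mrpl52 of -0.72 (SE 0.16, adjusted p = 0.00845) and Mrps34 of -0.69 (SE 0.14, adjusted p = 0.00398), with the levels given above. Mrpl9, a large subunit protein of bacterial origin, was at 20.6 and 17.9 RPKM in -R, 32.04 and 29.2 RPKM in +R, and 21.4 and 18.01 RPKM in R+LE, a log2 fold change with LE of -0.63 (SE 0.15, adjusted p = 0.00979). Its R+LE libraries thus lay close to those of -R. Without a filter on low genes, Mrps6, Mrpl52 and Mrpl9 no longer passed (adjusted p = 0.0503, 0.0861 and 0.07), and Mrpl9 also not without +R replicate 1 (adjusted p = 0.0726).

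The members with the highest signed log2 fold change in R+LE against +R, at or just around 0, were Mrpl39, Mrpl27, Mrpl40, Mrpl30 and Mrpl14, and none passed the test. Mrpl39 was at 15.0 and 13.8 RPKM in +R and 16.7 and 13.8 RPKM in R+LE, and its log2 fold change was 0.074 (SE 0.14, 95% interval -0.23 to 0.38). Mrpl27 had a value of 0.071 (95% interval -0.26 to 0.40) and Mrpl40 of 0.0011 (95% interval -0.30 to 0.30). Mrpl30, at 75.2 and 70.4 RPKM in +R and 84.5 and 61.1 RPKM in R+LE, and Mrpl14, at 44.95 and 41.5 RPKM in +R and 48.6 and 37.2 RPKM in R+LE, had log2 fold changes of -0.018 and -0.022 that turned positive under 4 other scalings. In each of these 5 genes, R+LE replicate 1 was the highest of the +R and R+LE libraries.

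The 2 R+LE libraries differed in the size of this change. R+LE replicate 1 was below the mean of the +R libraries in 57 of 78 members (49% of all genes tested), with a median difference of -0.11, and R+LE replicate 2 in all 78 (63.5% of all genes), with a median of -0.42. Replicate 1 was below both +R libraries in 50 members, as were 37.7% of all genes, and above both in 13, as were 38.2%. Replicate 2 was below both in 77 members, as were 52.7% of all genes, and above both in none, against 27.7%. With replicate 2 left out, LE lowered 5 members against +R at a median of -0.11, and with replicate 1 left out it lowered 24 at a median of -0.42. Replicate 2 also had the fewest of its reads on genes, 74.2% against 80.5% in replicate 1, and the larger share of those on Rn45s, 13.5% against 11.2%. The part of these shares in the difference was not tested.

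**Figure D4:**
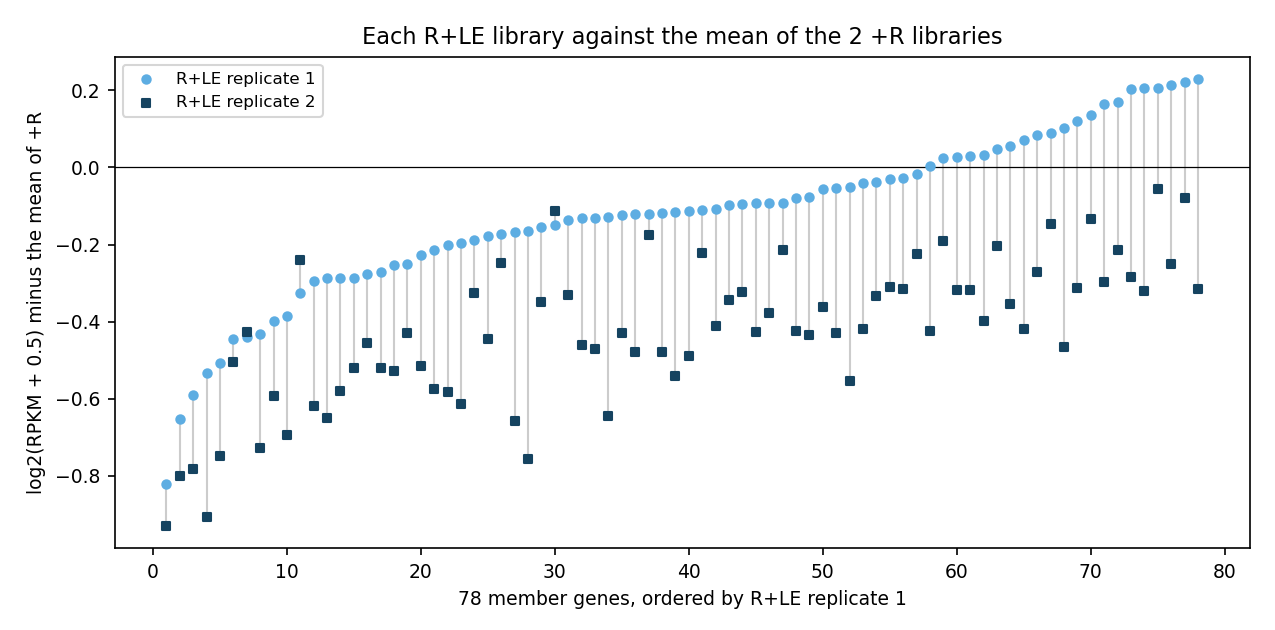
Difference in log2(RPKM + 0.5) between each R+LE library and the mean of the 2 +R libraries for the 78 members, ordered by R+LE replicate 1 (circles), with R+LE replicate 2 as squares and a line between the values of a gene. Circles lie below 0 in 57 genes and squares in all 78, and the medians are -0.11 and -0.42.

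Against cells without RANKL, few members stayed higher once LE was present. In R+LE against -R, 7 of 78 members were higher (limma, adjusted p below 0.05), against 15.3% of all genes tested, and 71 did not pass. These were Mrps6, Mrpl45 and Mrps35, with Mrpl16, Mrpl12, Mrpl50 and Mrps25, the first alone at least 2-fold, as were 3.92% of all genes, with 6.36% at least 2-fold lower. No member was lower, against 19% of all genes, and limma at an unadjusted p below 0.05 and voom gave none either. The members' median log2 fold change was 0.13, against -0.010 for all genes, with 57 members above 0 (49% of all genes) and 21 below (51%). Both R+LE libraries were above both -R libraries in 23 members (31.2% of all genes) and below both in 5 (34.3% of all genes). With R+LE replicate 2 left out, 22 members were higher and the median was 0.28. With replicate 1 left out, 3 were higher, 2 were lower and the median was -0.028. Without either -R library 3 were higher, and under other scalings, voom with TMM included, 10 to 26 were.

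Mrps6 was 3.47-fold higher in R+LE than in -R, a log2 fold change of 1.79 (SE 0.16, adjusted p = 3.39e-07). Mrpl45, whose level was 12.0 and 10.9 RPKM in -R, 22.01 and 20.6 RPKM in +R and 19.9 and 16.9 RPKM in R+LE, had a log2 fold change of 0.66 (SE 0.14, adjusted p = 0.00206). For Mrps35 it was 0.51 (SE 0.14, adjusted p = 0.00984), which did not pass without -R replicate 2 (adjusted p = 0.0953). The lowest values were those of Mrpl27 (-0.31, adjusted p = 0.134), Mrps15 (-0.24, adjusted p = 0.267) and Mrpl46 (-0.22, adjusted p = 0.29), none of which passed. Mrpl27 and Mrps15 were the 2 members called lower when R+LE replicate 1 was left out, with adjusted p of 0.0371 and 0.0294.

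The means of the 3 conditions ran from -R over R+LE to +R in 54 of 78 members, an order that 31.6% of all genes tested showed. In 19 members R+LE was lowest and +R highest, in 3 R+LE was highest, and in 2 members -R was highest. The comparisons share their libraries, so these orders are a description of the means.

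The rest of the machinery for mitochondrial translation was read from lists of its genes. Of 14 translation factors, 6 (42.9%) rose with RANKL, against 23.9% of all genes tested (median log2 fold change 0.34). Of the 14, 2 fell with LE (14.3%, against 6.86% of all genes tested), both among the 6 that rose. These were Tufm and Tsfm, the elongation factor that brings tRNA to the ribosome and its exchange factor. Tufm went from 74.1 and 71.8 RPKM in +R to 53.7 and 39.6 RPKM in R+LE. Of 25 assembly factors, 6 rose with RANKL (24%, about the share of all genes tested) and 2 fell (8%, against 21.5% of all genes), with a median of 0.17. With LE none of the 25 passed, and the median was -0.12. Of 17 mitochondrial aminoacyl-tRNA synthetases, 7 (41.2%) rose with RANKL (median 0.32), one of them Lars2, which was listed at 2245 to 5634 RPKM when the other 16 did not exceed 16.3 RPKM. Its -R libraries stood at 3789 and 2245 RPKM, and its rise passed by little (limma, adjusted p = 0.0414). Whether those reads come from the Lars2 message was not tested. None of the 17 passed in R+LE against +R. In the list of mitochondrial transcription and RNA handling, 8 of 16 genes (50%) rose (median 0.51). With LE, 3 of the 16 fell (18.8%, against 6.86% of all genes tested), Fastk, Trmt10c and Hsd17b10. Hsd17b10, a dehydrogenase that is also part of mitochondrial RNase P, was at 39.9 and 32.9 RPKM in -R, 148 and 147 RPKM in +R and 116 and 90.4 RPKM in R+LE, a log2 fold change with RANKL of 2.01 (SE 0.16, adjusted p = 9.47e-08).

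Of the 5 mitoribosomal proteins under other symbols, 1 (20%) rose with RANKL, against 23.9% of all genes tested. Ptcd3, a small subunit protein of the pentatricopeptide family, was at 12.2 and 16.2 RPKM in -R, 27.0 and 24.2 RPKM in +R and 22.3 and 17.6 RPKM in R+LE, and rose with RANKL by 0.84 (SE 0.17, adjusted p = 0.000673). The log2 difference between +R and -R for Dap3, a GTP-binding protein of the small subunit, was 0.29 (adjusted p = 0.12), for Gadd45gip1 0.18 (adjusted p = 0.357), for Aurkaip1 0.047 (adjusted p = 0.826) and for Chchd1 0.0024 (adjusted p = 0.991), and none of these 4 passed. With LE the median of the 5 was -0.20. Genes of the mitochondrial genome were not analysed here.

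Among the regulators that the field links to these genes, 4 of 8 tested (50%) rose with RANKL, against 23.9% of all genes tested. Ppargc1b, the coactivator PGC-1β, was at 0.719 and 0.922 RPKM in -R, 9.29 and 11.3 RPKM in +R and 2.31 and 3.35 RPKM in R+LE, with log2 fold changes of 3.03 with RANKL (adjusted p = 2.99e-09) and -1.71 with LE (adjusted p = 1.49e-05). Myc rose by 0.89 (adjusted p = 8.08e-05) and was at 48.6 and 46.3 RPKM in +R and 42.8 and 45.02 RPKM in R+LE, where the difference did not pass. Gabpa, the ETS subunit of GABP, rose by 0.55 (adjusted p = 0.00572) and Esrra, which encodes ERRα, by 0.36 (adjusted p = 0.0395). Nrf1 and Yy1 had log2 fold changes of 0.031 (adjusted p = 0.887) and -0.034 (adjusted p = 0.856), Gabpb1 of 0.029 (adjusted p = 0.88) and Pprc1 of -0.25 (adjusted p = 0.196). Ppargc1a held at most 4 reads in a library and was not tested.

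Set beside other large families, the change of the members with RANKL was smaller in size. Of 85 cytosolic ribosomal protein genes tested, 78 rose with RANKL at a median of 0.74 on the log2 scale. Of 75 nuclear-encoded respiratory chain subunits, 66 rose at a median of 0.76. In the members, 34 of 78 rose at a median of 0.35, and 23.9% of all genes tested rose. With LE, 27 of the 75 respiratory chain subunits were lower than in +R (median -0.47), against 8 of 78 members (median -0.25). None of the 85 cytosolic ribosomal protein genes passed, with 82 below 0 and a median of -0.22. Over all genes tested, 6.86% were lower and 58% were below 0. These counts come from the same fit and were not tested against each other.

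Reads were counted without regard to strand, and 26 of the 78 members share exon sequence with another gene in GENCODE M21, 22 of them with a gene on the opposite strand and 5 with one on the same strand. Among members named here these are Mrps6, Mrpl9 (157 bases with Oaz3, at most 0.311 RPKM), Mrpl10, Mrpl12, Mrpl19, Mrpl27, Mrpl58 (2 bases with Ict1os), Mrps18b, Mrps18c, Mrps25, Mrps26 and Mrps30. The longest of these overlaps is that of Mrps25, of whose 6073 exon bases 3533 are also exon of Nr2c2, a nuclear receptor gene on the other strand. Nr2c2 was at 4.198 and 5.70 RPKM in -R, 7.90 and 8.31 RPKM in +R and 6.80 and 7.33 RPKM in R+LE, and was higher than in -R both in +R (log2 fold change 0.67, adjusted p = 0.00226) and in R+LE (0.49, adjusted p = 0.0237). Mrpl53 lies whole within Gm42688 on the same strand, so its reads cannot be told from those of that gene. Mrps35, Mrpl52, Mrps34 and Mrpl45 share none.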

How the data were processed

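RNA from 6 libraries was sequenced as paired ends. Per the file headers, the authors ran HOMER over the exons of mm10 genes, took reads of both strands, kept 1 transcript per gene and deposited RPKM, under column titles that say FPKM. The methods name TopHat as aligner and the submitters' processing notes HISAT2, without versions. How reads with several matches were counted is not given in the sources used here. In the table, 26 symbols had been turned into dates, and all 26 were restored.

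Groups came from the sample titles. RPKM values were tested as log2(RPKM + 0.5) with limma 3.58.1 in R 4.3.3, with group means over all 6 libraries, empirical Bayes moderation, a variance trend and Benjamini-Hochberg adjustment over 11595 genes. Fold changes are on that scale and understate changes of low genes. The 3 conditions gave 3 comparisons. An exact permutation test of 2 against 2 libraries cannot go below p = 0.333, and no single-gene permutation test was run. The p-values measure the spread between libraries, which may be technical.

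Depth was recovered from the steps of low RPKM values, and counting limits cover counting error only. Members, lists and tests were chosen with earlier results of these data known. Members named are those at least 2-fold changed, the 5 highest and 5 lowest signed log2 fold changes in +R against -R and R+LE against +R, the 3 highest and 3 lowest in R+LE against -R, the 5 highest and 3 lowest means, Mrps18a, Mrps18b, Mrps18c, Mrps30, Mrps36 and the stalk genes. Among other genes, list members at least 2-fold changed, the regulators and the mitoribosomal proteins under other symbols were named, and other genes and members were chosen with their values in view. The fit was repeated with pseudocounts of 0.1 and 1, without the filter, with a minimum of 1 RPKM, with no variance trend, on the compared groups alone, under other scalings, with a replicate block, as voom with TMM on recovered reads and with each library left out. Scaling to the reads on genes other than Rn45s was chosen after seeing the data. Tables and figures were made in Python 3.11.15 (pandas 2.3.3, numpy 2.4.6, matplotlib 3.10.9).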

Additional observations from a re-analysis of the deposited data

How the results depend on the processing

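In +R against -R, the number of members that were higher (34) was 54 under quantile normalization and 57 with depth taken as the reads on genes other than Rn45s, and 19 to 48 with 1 library left out, the lowest being 20 without -R replicate 1 and 19 without -R replicate 2. One member, Mrpl27, was called lower, where the count reported is 0, with a minimum of 1 RPKM, with only the 2 groups compared, after centring on the median, under quantile normalization, under the replicate block and with voom, and the count was 0 to 1 with 1 library left out, 1 without either R+LE library. The median rose from 0.35 to 0.41 without Rn45s in the depth and 0.43 with reads on genes, and lay at 0.31 to 0.38 with 1 library left out. In R+LE against +R, the count of lower members (8) was 2 without a filter and 14 under the replicate block, and 5 to 24 with 1 library left out, 5 without +R replicate 1. The median was then -0.42 to -0.11. In R+LE against -R, the count of higher members (7) was 4 without a filter, 13 after centring, 24 under quantile normalization, 12 without Rn45s in the depth, 11 under the replicate block and 26 with reads on genes, and 3 to 22 with 1 library left out, 3 without either -R library. Of lower members there were 0 to 2, and the median was -0.028 to 0.28. Scaling to reads on genes moved the median of all genes in that comparison from -0.010 to 0.099, and that of the members to 0.24. The cause of these shifts was not tested. The medians kept their sign under every scaling.

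Of the named members, Mrpl14 and Mrpl30 turned positive in R+LE against +R, at 0.029 and 0.033 after centring, 0.033 and 0.045 under quantile normalization, 0.044 and 0.048 with voom and 0.021 and 0.026 with reads on genes. In +R against -R, Mrpl35, Mrpl40 and Mrpl46 were at -0.019, -0.024 and -0.029 with voom. With 1 library left out, values in R+LE against +R ran from -0.21 to 0.17 for Mrpl14, -0.25 to 0.21 for Mrpl30, -0.079 to 0.22 for Mrpl27, -0.057 to 0.21 for Mrpl39 and -0.13 to 0.14 for Mrpl40, and in +R against -R from -0.0096 to 0.068 for Mrpl35 and -0.075 to 0.12 for Mrpl46. Over the named members, 541 single-gene values under alternatives kept their direction and side of the threshold, 15 lost the threshold, 17 gained it and 21 changed sign.

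The labels do not say whether libraries with the same replicate number form pairs, and the main fit treated them as unpaired. The differences between replicates correlated at -0.046 for -R and +R, 0.11 for -R and R+LE and 0.25 for +R and R+LE across genes. With 2 libraries per condition, these values cannot settle whether the libraries were paired. The counts under the replicate block, 40, 14 and 11, are given for completeness.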
